A study of Homo sapiens with 26 samples.

Results

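A set of 8 genes that encode transcription factors of the endoderm lineage, HNF4G, FOXA1, FOXA2, FOXA3, GATA4, GATA6, CDX2 and PDX1, was followed through 26 RNA sequencing libraries of 3 established pancreatic ductal adenocarcinoma cell lines in which HNF4A had been induced or repressed. The genes were picked by gene symbol, 8 of 62778 gene identifiers in the deposited count tables, and each was found in all 3 tables. In Panc10.05, cells carried a doxycycline-inducible construct for the HNF4A isoform P1-a2 (25 ng/mL doxycycline), the isoform P2-a8 (12.5 ng/mL) or a GFP control, GFP-NC (25 ng/mL), so that isoform and dose changed together in that line. In BxPC3, cells with P1-a2, P2-a8 or the control labelled EV-NC all received 500 ng/mL. In AsPC-1, CRISPR interference, which lowers transcription from a promoter marked by a guide RNA, was used with 2 guides against the P1 promoter (sgP1E, sgP1J), 2 against P2 (sgP2D, sgP2G), 2 labelled as acting on both (sgDual2, sgDual3) and 1 control guide, sgNC. Control cells of the induced lines therefore received doxycycline too. Each construct or guide had 2 libraries, and sgP1, sgP2 and sgDual are the pooled groups of 4. Each pooled group counts the libraries of 2 guides as 4, so its spread also holds differences between guides. Whether a line was 1 clone, which promoter drove the constructs and whether replicates were separate cultures are not given in the sources used here, so the p-values measure the spread between libraries, which may be technical.

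The definitive endoderm gives rise to liver, pancreas, stomach and gut. FOXA1, FOXA2 and FOXA3 are forkhead proteins that bind DNA in closed chromatin and open it for other factors. GATA4 and GATA6 are zinc finger proteins needed for the early pancreas and stomach, and GATA6 is known in pancreatic cancer as a marker of the classical, better differentiated state. CDX2 is a homeobox protein of the intestine, PDX1 is a homeobox protein of the early pancreas and the beta cell, and HNF4G is the nearest relative of HNF4A and binds closely similar DNA.

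The Panc10.05 libraries held 34618745 to 46827673 counts each, those of BxPC3 26369154 to 37483772 and those of AsPC-1 26079388 to 50662077. Levels are given in CPM, a gene's counts per 1e+06 counts of its library after scaling, and levels of different genes are compared only as CPM per kb of annotated exon. HNF4A, the targeted gene, was 74.0-fold and 235-fold above the control under P1-a2 and P2-a8 in Panc10.05, 14.6-fold and 18.3-fold above it in BxPC3, and at 60.8%, 40.7% and 3.76% of the control with sgP1, sgP2 and sgDual in AsPC-1, where edgeR called sgDual (adjusted p 6.25e-06) but neither sgP1 (0.615) nor sgP2 (0.0751). HNF4A with sgP2 was called by DESeq2 (adjusted p 0.0375) and when both groups were fitted alone (adjusted p 0.000223). The Panc10.05 controls held only 10 and 2 HNF4A counts, so the HNF4A folds in that line are approximate. Gene counts do not separate P1 from P2 transcripts. A summed list of 6 duct and epithelial markers stood between 5821 and 18020 CPM in every library with all 6 genes detected, while 15 acinar and islet markers summed to at most 1.57 CPM with at least 11 of them at 0. The 3 lines were counted in 3 separate tables, so differences in level between lines cannot be told apart from differences between tables.

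Each control line had its own set of these factors. BxPC3 had the most FOXA1 and FOXA2, AsPC-1 the most HNF4G, PDX1 and CDX2, and Panc10.05 the most GATA4. One member was at or near 0 in each line. CDX2 had 0 counts in all 6 Panc10.05 libraries, where 3 counts would be 0.0641 to 0.0869 CPM. FOXA2 had 0 to 2 counts in the 14 AsPC-1 libraries, and FOXA3 had 0 to 3 in the 6 BxPC3 libraries. These floors cover counting error only.

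In Panc10.05 controls GATA4 led at 4.66 ± 0.21 CPM per kb (SD, n = 2), followed by GATA6 at 1.78 ± 0.03 and HNF4G at 1.6 ± 0.12. FOXA1 (0.874 ± 0.060), FOXA3 (0.523 ± 0.066), FOXA2 (0.340 ± 0.041) and PDX1 (0.205 ± 0.087) were below 1 CPM per kb, and no neighbours in this order overlapped within 1 SD. In BxPC3 controls GATA6 at 19.6 ± 1.7 and FOXA1 at 18.7 ± 1.2 CPM per kb lay within their spread of each other, and FOXA2 followed at 9.32 ± 0.27. HNF4G (1.48 ± 0.16), PDX1 (0.813 ± 0.0998), GATA4 (0.505 ± 0.051) and CDX2 (0.502 ± 0.233) were lower there, GATA4 and CDX2 within their spread of each other. In AsPC-1 controls GATA6 led the 8 genes at 14.4 ± 1.9 CPM per kb. HNF4G (7.79 ± 2.11), PDX1 (6.42 ± 0.93) and CDX2 (5.57 ± 1.04) overlapped in their spread, and GATA4 (1.89 ± 0.05), FOXA1 (0.373 ± 0.145) and FOXA3 (0.269 ± 0.008) were lower, with FOXA1 and FOXA3 within their spread of each other. HNF4A itself stood at 29.1 ± 1.4 CPM per kb in AsPC-1, 0.105 ± 0.059 in BxPC3 and 0.0204 ± 0.0176 in Panc10.05. Thus the line with high HNF4A was also the line with the highest HNF4G, CDX2 and PDX1 and the lowest FOXA1, a description over 3 lines.

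**Figure D1:**
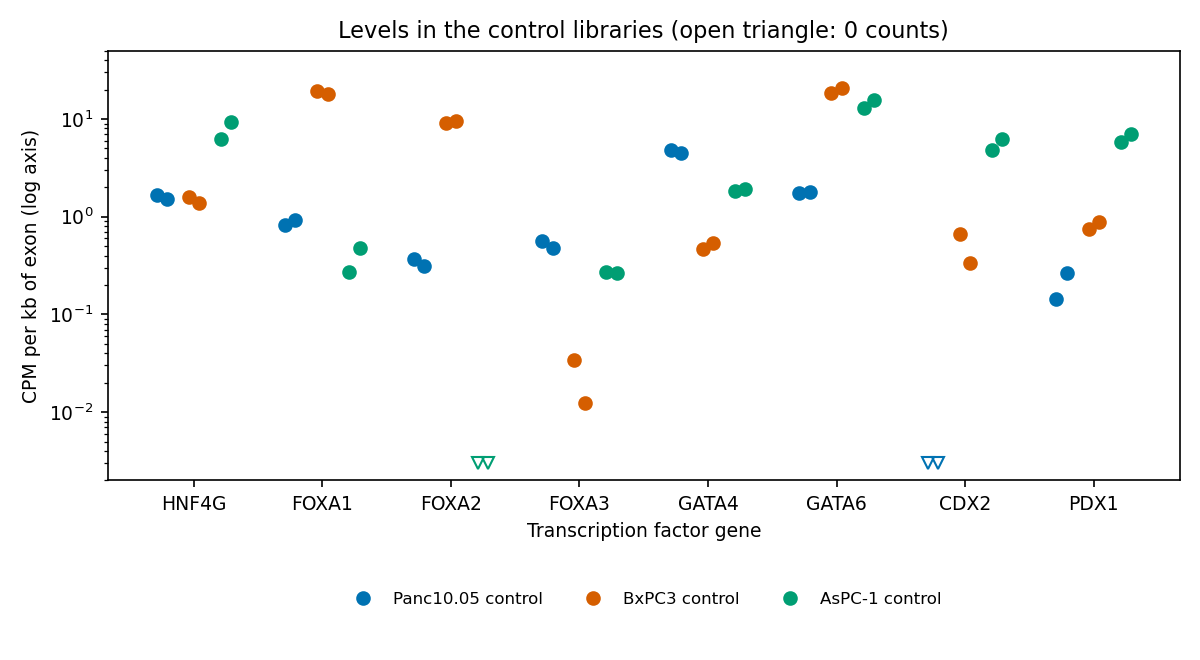
Levels of the 8 genes in the control libraries, as CPM per kb of exon on a log axis, with 1 point per library and 1 colour per cell line; open triangles mark 0 counts. FOXA1 and FOXA2 stand highest in BxPC3, GATA4 in Panc10.05, and HNF4G, CDX2 and PDX1 in AsPC-1.

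The first comparison asked how the P1-a2 isoform changed these factors in Panc10.05. FOXA1, GATA4 and GATA6 rose and HNF4G, PDX1 and FOXA3 fell, so that 6 of the 7 members tested passed the threshold (adjusted p under 0.05 by edgeR's quasi-likelihood test over all genes). Of all genes tested in that comparison, 62.0% passed, so the members' share is not far from that of other genes. The largest change was in FOXA3, the member known best from liver, which was at 1.25 and 1.04 CPM in the controls and 0.334 and 0.326 CPM under P1-a2, a 3.47-fold fall (log2 fold change -1.79, SE 0.37, adjusted p 5.01e-05). PDX1 was at 0.360 and 0.666 CPM in the controls and 0.180 and 0.217 CPM under P1-a2 (log2 fold change -1.32, SE 0.50, adjusted p 0.02). These are 15 and 23 counts against 7 and 10, and the PDX1 call was lost in DESeq2 (adjusted p 0.0625) and without GFP-NC replicate 2 (-0.84, adjusted p 0.25) or P1-a2 replicate 1 (adjusted p 0.0815).

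GATA6 was at 6.94 and 7.10 CPM in the controls and 10.8 and 9.60 CPM under P1-a2, a 1.45-fold rise (log2 fold change 0.54, SE 0.12, adjusted p 0.000117). FOXA1 rose from 3.31 and 3.65 CPM to 4.41 and 5.48 CPM (log2 fold change 0.52, SE 0.16, adjusted p 0.00426). GATA4 rose less, from 21.4 and 20.0 CPM to 25.6 and 25.4 CPM (0.30, SE 0.08, adjusted p 0.00184). In each of these 3 genes both induced libraries stood above both controls. The groups were also apart in FOXA2, which was not called, so this separation does not mark out the called genes. HNF4G fell from 8.11 and 7.27 CPM to 5.62 and 6.54 CPM (-0.34, SE 0.13, adjusted p 0.0184). FOXA2 did not pass, at 0.960 and 0.811 CPM in the controls and 0.359 and 0.717 CPM under P1-a2 (adjusted p 0.0775). The FOXA1 call was lost without P1-a2 replicate 2 (0.35, adjusted p 0.128) or GFP-NC replicate 1 (adjusted p 0.058), and the HNF4G call in DESeq2 (adjusted p 0.0576) and without P1-a2 replicate 1 or GFP-NC replicate 1 (adjusted p 0.185 and 0.15).

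Under P2-a8 in Panc10.05 the same 2 factors FOXA1 and GATA4 rose and FOXA3 fell, 3 of the 7 tested, against 46.2% of all genes. Both isoforms were compared with the same controls. FOXA3 stood at 0.342 and 0.422 CPM, 3.03-fold below the controls (log2 fold change -1.598, SE 0.36, adjusted p 0.000322). GATA4 stood at 26.9 CPM in both libraries (0.38, SE 0.08, adjusted p 0.000224). FOXA1 stood at 4.89 and 4.70 CPM (0.47, SE 0.16, adjusted p 0.0139), a call that was lost in DESeq2 (adjusted p 0.0659) and without GFP-NC replicate 1 or P2-a8 replicate 1 (adjusted p 0.102 and 0.0802). GATA6, which had risen under P1-a2, was at 6.77 and 7.01 CPM and overlapped the controls. PDX1, at 0.683 and 1.21 CPM, had a log2 fold change of 0.88 (SE 0.39) but was not called (adjusted p 0.0608; called without P2-a8 replicate 1 or GFP-NC replicate 2), as did HNF4G at 9.44 and 9.04 CPM (0.26, SE 0.12, adjusted p 0.0721).

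Set directly against each other, the isoforms differed in 4 of the 7 members in Panc10.05, against 46.9% of all genes. GATA6 was higher under P1-a2 than under P2-a8 (log2 fold change 0.57, SE 0.12, adjusted p 9.75e-05). PDX1, the pancreatic homeobox factor, was 4.59-fold lower under P1-a2 (-2.20, SE 0.45, adjusted p 7.86e-05) and HNF4G was 1.52-fold lower (-0.60, SE 0.12, adjusted p 8.03e-05). FOXA2, at 0.961 and 1.18 CPM under P2-a8, was lower under P1-a2 (-0.95, SE 0.33, adjusted p 0.017). The FOXA2 call was lost in DESeq2 (adjusted p 0.0906) and without P2-a8 replicate 2 (adjusted p 0.102) or P1-a2 replicate 1 (-0.56, adjusted p 0.247). FOXA1, GATA4 and FOXA3 did not pass (adjusted p 0.82, 0.46 and 0.747). The P2-a8 cells had received less doxycycline and held 3.17-fold more HNF4A counts, so isoform, dose and HNF4A level cannot be told apart here.

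In BxPC3 the P1-a2 isoform gave another pattern. FOXA1, GATA6 and HNF4G fell and GATA4 rose, 4 of the 7 tested, against 32.1% of all genes. FOXA1 was at 77.8 and 71.1 CPM in the controls and 47.5 and 40.9 CPM under P1-a2, a 1.69-fold fall (log2 fold change -0.75, SE 0.10, adjusted p 0.000196). GATA6 was at 72.8 and 82.0 CPM in the controls and 50.8 and 54.8 CPM under P1-a2, a 1.47-fold fall (-0.55, SE 0.08, adjusted p 0.00042). HNF4G was at 7.65 and 6.58 CPM in the controls and 4.14 and 3.03 CPM under P1-a2 (-0.99, SE 0.18, adjusted p 0.00139). GATA4 was at 2.08 and 2.40 CPM in the controls and 3.98 and 4.05 CPM under P1-a2, a 1.78-fold rise (0.83, SE 0.19, adjusted p 0.00578). All 4 calls held in DESeq2 and without any 1 library. In bulk RNA, fewer cells that make a transcript and less of it per cell cannot be told apart.

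FOXA2, PDX1 and CDX2 did not pass under P1-a2 in BxPC3. FOXA2, the second abundant FOXA gene of this line, was at 23.8 and 24.8 CPM in the controls and 27.9 and 25.8 CPM under P1-a2 (adjusted p 0.267). PDX1 was at 1.86 and 2.21 CPM in the controls and 3.14 and 2.49 CPM under P1-a2 (adjusted p 0.154). CDX2 overlapped between the groups, at 2.75 and 1.39 CPM in the controls and 1.599 and 1.89 CPM under P1-a2.

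P2-a8 moved fewer of these genes in BxPC3. Only FOXA1 passed, 1 of 7, against 6.99% of all genes. It was at 62.4 and 52.9 CPM, 1.29-fold below the controls (log2 fold change -0.37, SE 0.10, adjusted p 0.0452). This call was lost without EV-NC replicate 1, EV-NC replicate 2 or P2-a8 replicate 2 (adjusted p 0.21, 0.0814 and 0.177). HNF4G, at 5.03 and 5.14 CPM, lay below both controls but missed the threshold (-0.48, SE 0.17, adjusted p 0.135), while GATA6 at 66.2 and 75.6 CPM, GATA4 at 2.32 and 2.51 CPM and PDX1 at 1.72 and 2.05 CPM overlapped them.

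At equal dose in BxPC3, P1-a2 differed from P2-a8 in 3 of 7 members, against 22.5% of all genes. P1-a2 libraries held less FOXA1 (log2 fold change -0.39, SE 0.10, adjusted p 0.0162) and less GATA6 (-0.42, SE 0.08, adjusted p 0.00406), and GATA4 was higher (0.74, SE 0.19, adjusted p 0.0155). Without P1-a2 replicate 2 the FOXA1 and GATA4 calls were lost (-0.27 and 0.74, adjusted p 0.13 and 0.0664), as they were without P2-a8 replicate 1 (-0.24 and 0.70, adjusted p 0.13 and 0.0805). HNF4G (-0.51, SE 0.18, adjusted p 0.0651), PDX1 (0.57, SE 0.23, adjusted p 0.0921) and FOXA2 (0.20, SE 0.09, adjusted p 0.143) had unadjusted p-values under 0.05 and missed the threshold. HNF4G passed with no filter on low counts (adjusted p 0.0331) and without P1-a2 replicate 1 (-0.74, adjusted p 0.0315). For HNF4A itself the comparison of P1-a2 with P2-a8 missed the threshold in BxPC3 (adjusted p 0.217).

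**Figure D2:**
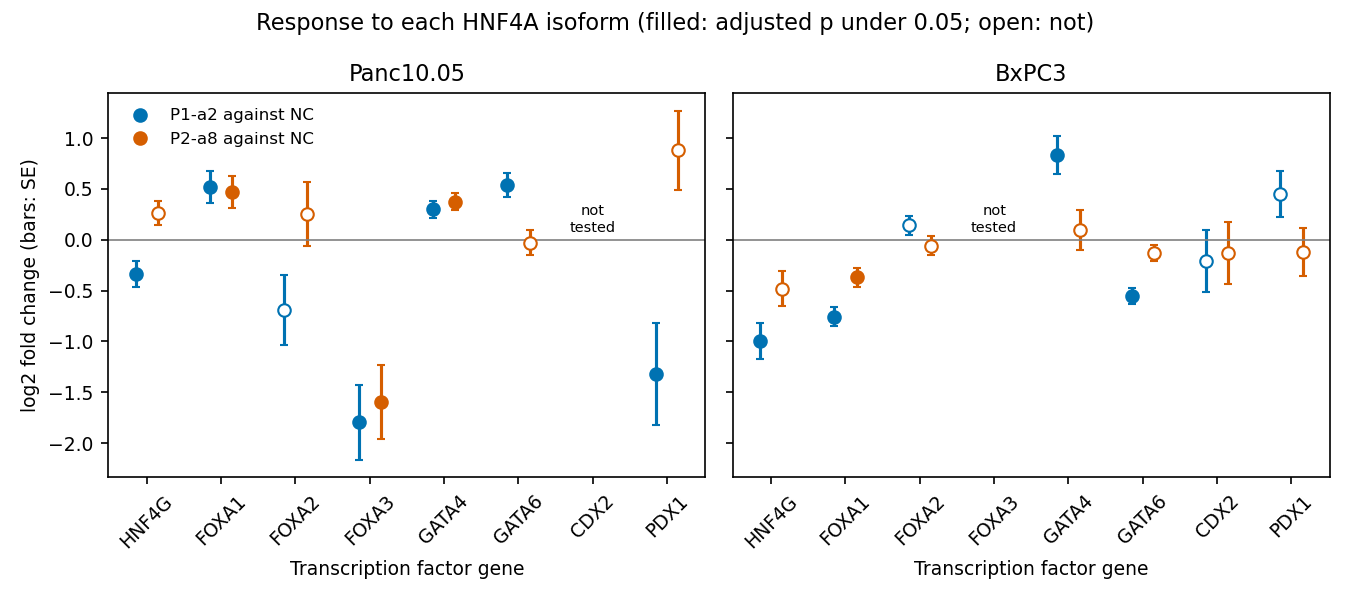
Log2 fold change of each gene against the control of its line, with the standard error, for P1-a2 and P2-a8 in Panc10.05 and BxPC3; filled points passed the threshold and open points, among them values whose sign was not stable across alternatives, did not. FOXA1 and GATA6 lie above 0 under P1-a2 in Panc10.05 and below 0 in BxPC3, while GATA4 lies above 0 in both.

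The difference between the lines was then tested as an interaction in a joint fit of the 12 libraries. The 6 members above the floor in both lines could be compared. For P1-a2 against NC all 6 differed between the lines, against 36.4% of all genes. FOXA1 (difference in log2 fold change, Panc10.05 minus BxPC3, 1.28, SE 0.17, adjusted p 2.22e-06) and GATA6 (1.10, SE 0.13, adjusted p 6.28e-07) had risen in Panc10.05 and fallen in BxPC3. PDX1 differed by -1.75 (SE 0.54, adjusted p 0.0133) and FOXA2 by -0.82 (SE 0.31, adjusted p 0.0381). GATA4 rose in both lines, less in Panc10.05 (-0.52, SE 0.17, adjusted p 0.0222), and HNF4G fell in both, less in Panc10.05 (0.66, SE 0.22, adjusted p 0.0185). The FOXA1 and GATA6 differences held under every alternative run (adjusted p up to 0.000139 and 7.91e-06), whereas the FOXA2, GATA4, HNF4G and PDX1 differences were each lost without at least 1 library. DESeq2 called 5 of the 6.

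For P2-a8 against NC, 2 of the 6 differed between the lines, against 23.5% of all genes. These were FOXA1 (0.84, SE 0.17, adjusted p 0.000799), which rose in Panc10.05 and fell in BxPC3, and HNF4G (0.74, SE 0.21, adjusted p 0.0111). PDX1 missed the threshold (1.001, SE 0.46, adjusted p 0.123) and passed without Panc10.05 P2-a8 replicate 1 (adjusted p 0.046). For P1-a2 against P2-a8, 4 of the 6 differed, against 22.3% of all genes. They were PDX1 (-2.76, SE 0.50, adjusted p 0.000282), FOXA2 (-1.13, SE 0.29, adjusted p 0.00685), GATA6 (1.00, SE 0.13, adjusted p 7.95e-06) and GATA4 (-0.80, SE 0.17, adjusted p 0.00131). The FOXA2 difference was lost without Panc10.05 P1-a2 replicate 1 (-0.76, adjusted p 0.0843). FOXA1 narrowly missed (0.45, SE 0.16, adjusted p 0.0515) and passed under 7 alternatives, DESeq2 among them (adjusted p 0.0485). Line, doxycycline dose, control construct and table change together, so these sources cannot be told apart.

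In AsPC-1, where HNF4A is high to begin with, repression by the dual guides moved FOXA1 most of the 8 genes. FOXA1 and GATA6 rose and PDX1 and GATA4 fell with sgDual against sgNC, 4 of the 7 tested, against 35.6% of all genes. FOXA1 was at 1.08 and 1.89 CPM with sgNC, 15.0 and 21.4 CPM with sgDual2 and 9.81 and 15.9 CPM with sgDual3. All 4 dual libraries were above both controls, and the rise was 10.4-fold (log2 fold change 3.39, SE 0.55, adjusted p 0.000546). In CPM per kb FOXA1 reached 3.90 ± 1.19 (SD, n = 4), still below its 18.7 ± 1.2 in BxPC3 controls. FOXA1 (ENSG00000129514) lies on chromosome 14 from 37589984 to 37596059 on the minus strand of GRCh38 and overlaps TTC6 on the opposite strand. How strand was used in counting is not given in the sources used here, so FOXA1 counts are uncertain to that extent.

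GATA6 rose with it, from 51.6 and 61.9 CPM with sgNC to 89.2 and 80.5 CPM with sgDual2 and 93.1 and 88.3 CPM with sgDual3 (1.55-fold, log2 fold change 0.63, SE 0.11, adjusted p 0.000491). PDX1 fell from 14.4 and 17.7 CPM to 9.47 and 11.3 CPM with sgDual2 and 8.56 and 8.63 CPM with sgDual3 (1.69-fold, -0.76, SE 0.17, adjusted p 0.00277). GATA4 fell from 8.23 and 8.54 CPM to between 6.23 and 6.98 CPM in the 4 dual libraries (-0.33, SE 0.10, adjusted p 0.0174). The 2 GATA genes thus moved in opposite directions in the same libraries. The GATA4 call against sgNC was lost without either sgNC library, without either dual guide and with no filter on low counts (adjusted p 0.0597 to 0.117), and the PDX1 call without sgNC replicate 2 (adjusted p 0.0529).

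CDX2, the intestinal factor, was at 19.9 and 25.96 CPM with sgNC and between 31.1 and 35.4 CPM with sgDual, above both controls, but missed the threshold (adjusted p 0.129). It passed when only sgDual and sgNC were fitted, and the log2 difference was 0.71 within replicate 1 and 0.36 within replicate 2. HNF4G, the relative of the repressed gene, was at 30.3 and 44.6 CPM with sgNC and between 24.7 and 36.1 CPM with sgDual, so the groups overlapped (adjusted p 0.246), with sgDual below sgNC within replicate 1 (26.8 against 30.3 CPM) and within replicate 2 (32.9 against 44.6 CPM). FOXA3 overlapped too, at 0.602 and 0.578 CPM with sgNC and between 0.477 and 0.832 CPM with sgDual.

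**Figure D3:**
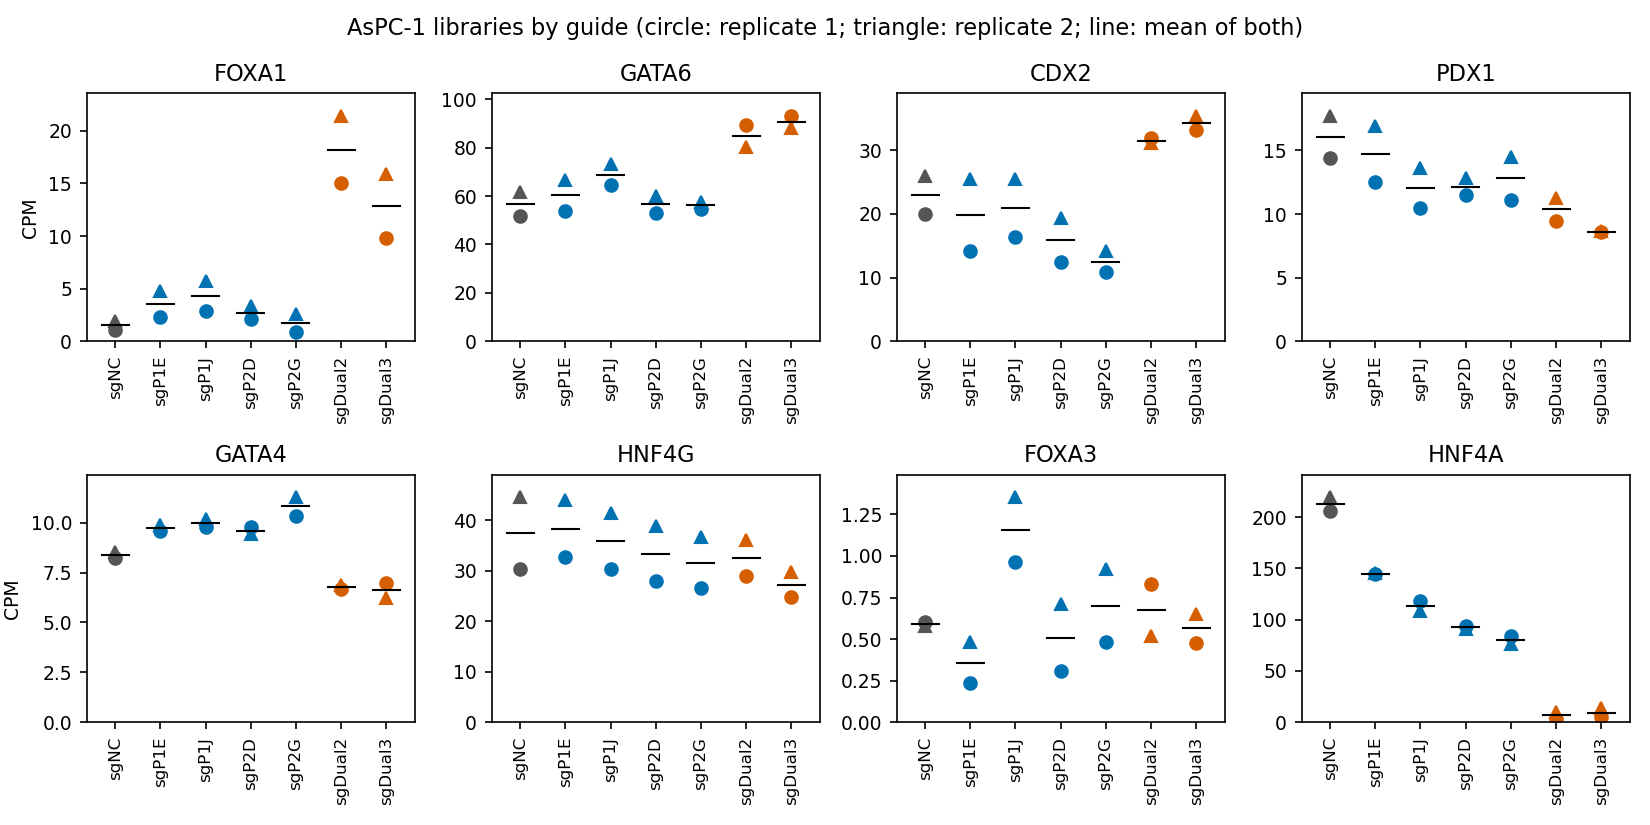
CPM of 7 of the 8 genes and of HNF4A in the 14 AsPC-1 libraries, by guide, on linear axes from 0; circles and triangles are replicates 1 and 2 and the line is their mean. FOXA1 and GATA6 are highest with both dual guides, where PDX1 and GATA4 are lowest; FOXA2, at 0 to 2 counts, is not drawn.

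Guides against a single promoter gave no call among the members. With sgP1 against sgNC, 0 of 7 passed in edgeR and in DESeq2, 2 had an unadjusted p under 0.05, and 0.265% of all genes passed. The sgP1 group pools 2 guides between which 14.5% of all genes differed, so its spread is partly that between guides. FOXA1 was at 2.30 and 4.81 CPM with sgP1E and 2.86 and 5.71 CPM with sgP1J, above both sgNC libraries, yet was not called (log2 fold change 1.38, SE 0.53, adjusted p 0.45). GATA4 was between 9.57 and 10.2 CPM, also above both sgNC libraries (0.23, SE 0.10, adjusted p 0.504). HNF4A itself missed the threshold in this comparison (adjusted p 0.615).

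With sgP2 against sgNC, 0 of 7 passed in edgeR and in DESeq2, 3 had an unadjusted p under 0.05, and 3.42% of all genes passed. CDX2 was at 12.4 and 19.4 CPM with sgP2D and 10.9 and 14.1 CPM with sgP2G, below both sgNC libraries (log2 fold change -0.69, SE 0.25, adjusted p 0.155). It passed in edgeR with the replicate number as a block (-0.70, adjusted p 0.0261). GATA4 was between 9.44 and 11.3 CPM (0.29, SE 0.10, adjusted p 0.132). PDX1 was between 11.1 and 14.5 CPM and overlapped sgNC (-0.36, SE 0.17, adjusted p 0.277). FOXA1 was between 0.869 and 3.30 CPM and overlapped sgNC as well.

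Between the single targets, sgP2 against sgP1 gave 0 of 7 calls in edgeR and in DESeq2, with 2 unadjusted p-values under 0.05 and 4.30% of all genes past the threshold. These 2 were CDX2 (log2 fold change -0.51, SE 0.21, adjusted p 0.198) and GATA6 (-0.19, SE 0.09, adjusted p 0.251). Without guide sgP1E, or without its replicate 1 alone, GATA6 passed, which made 1 call.

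The dual guides differed from each single target in the same 5 members, FOXA1, GATA6, CDX2, GATA4 and PDX1. Against sgP1, where 38.3% of all genes passed, FOXA1 was 4.004-fold higher (log2 fold change 2.001, SE 0.37, adjusted p 0.00118), GATA6 1.362-fold higher (0.45, SE 0.09, adjusted p 0.000992) and CDX2 1.62-fold higher (0.70, SE 0.20, adjusted p 0.0159). GATA4 was 1.47-fold lower (-0.56, SE 0.08, adjusted p 9.2e-05) and PDX1 1.41-fold lower with overlapping libraries (-0.49, SE 0.14, adjusted p 0.0121). Without guide sgDual3 the count against sgP1 was 3, as CDX2 (adjusted p 0.0998) and PDX1 (-0.36, adjusted p 0.157) were lost. The CDX2 call was also lost without guide sgDual2 (adjusted p 0.0533) and with no filter on low counts (adjusted p 0.0618). The PDX1 call was also lost without guide sgP1E (adjusted p 0.0921). Against sgP2, where 46.4% of all genes passed, FOXA1 was 7.03-fold higher (2.81, SE 0.40, adjusted p 0.000104), CDX2 2.32-fold higher (1.21, SE 0.21, adjusted p 0.000395) and GATA6 1.56-fold higher (0.64, SE 0.09, adjusted p 3.5e-05). GATA4 was 1.53-fold lower (-0.61, SE 0.08, adjusted p 2.34e-05), and PDX1 overlapped between the groups (-0.40, SE 0.14, adjusted p 0.0321), a call lost under 8 of 18 alternatives. For CDX2 all sgDual libraries lay above those of sgP1, sgP2 and sgNC, all sgP2 libraries lay below sgNC, and sgP1 overlapped sgNC. The 3 comparisons share libraries, so the values are set side by side.

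Guides against the same target were compared with each other, and FOXA3 was the 1 member to differ. It was at 0.234 and 0.481 CPM with sgP1E and 0.963 and 1.355 CPM with sgP1J, 3.40-fold lower with sgP1E (log2 fold change -1.76, SE 0.44, adjusted p 0.0163). This call, 1 of 7 between those guides against 14.5% of all genes, rested on 12 and 16 counts against 33 and 42. The call was lost without sgP1E replicate 1 or sgP1J replicate 2 (adjusted p 0.153 and 0.105). Between sgP2D and sgP2G, 0 of 7 passed in edgeR and in DESeq2, with 0 unadjusted p-values under 0.05 and 1.69% of all genes past the threshold. Between sgDual2 and sgDual3 the counts were again 0 in both tools and 0 unadjusted, with 0.883% of all genes past the threshold.

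The replicate number moved with several of these levels in AsPC-1. Replicate 2 was above replicate 1 for all 7 guides in FOXA1, HNF4G and PDX1, for 6 of 7 in CDX2 and for 5 of 7 in FOXA3, GATA4 and GATA6. What the number marks is not given in the sources used here. Within replicate 1, the FOXA1 mean was 12.4 CPM with sgDual and 1.08 CPM with sgNC (log2 difference 3.53), and within replicate 2 it was 18.6 and 1.89 CPM (3.30). In replicate 1, GATA6 differed by 0.82 between sgDual and sgNC, and within replicate 2 by 0.45, while PDX1 differed by -0.68 and -0.83 and GATA4 by -0.27 and -0.38. The direction was the same within each number for the 4 called genes. This follows from their sgDual and sgNC libraries not overlapping, so it is no separate check.

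The make-up of the FOXA family shifted in all 3 lines. As a share of the summed FOXA CPM per kb, FOXA3 went from 32.2% and 27.9% in Panc10.05 controls to 10.9% and 8.26% under P1-a2 and 8.89% and 10.5% under P2-a8, while FOXA1 went from 47.0% and 53.8% to 79.3% and 76.4% and to 70.1% and 64.6%. The summed FOXA level stayed between 1.40 and 1.83 CPM per kb across these 6 libraries. In BxPC3, FOXA2 made up 31.8% and 34.7% of the sum in controls and 47.3% and 49.1% under P1-a2, with the sum going from 28.7 and 27.4 to 22.6 and 20.2 CPM per kb. In AsPC-1, FOXA1 made up 49.6% and 64.3% with sgNC and 90.9% to 95.6% with sgDual, and the sum went from 0.545 and 0.739 to between 2.68 and 5.63 CPM per kb. These shares were not tested; they restate the levels of the single genes on a per-length scale.

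**Figure D4:**
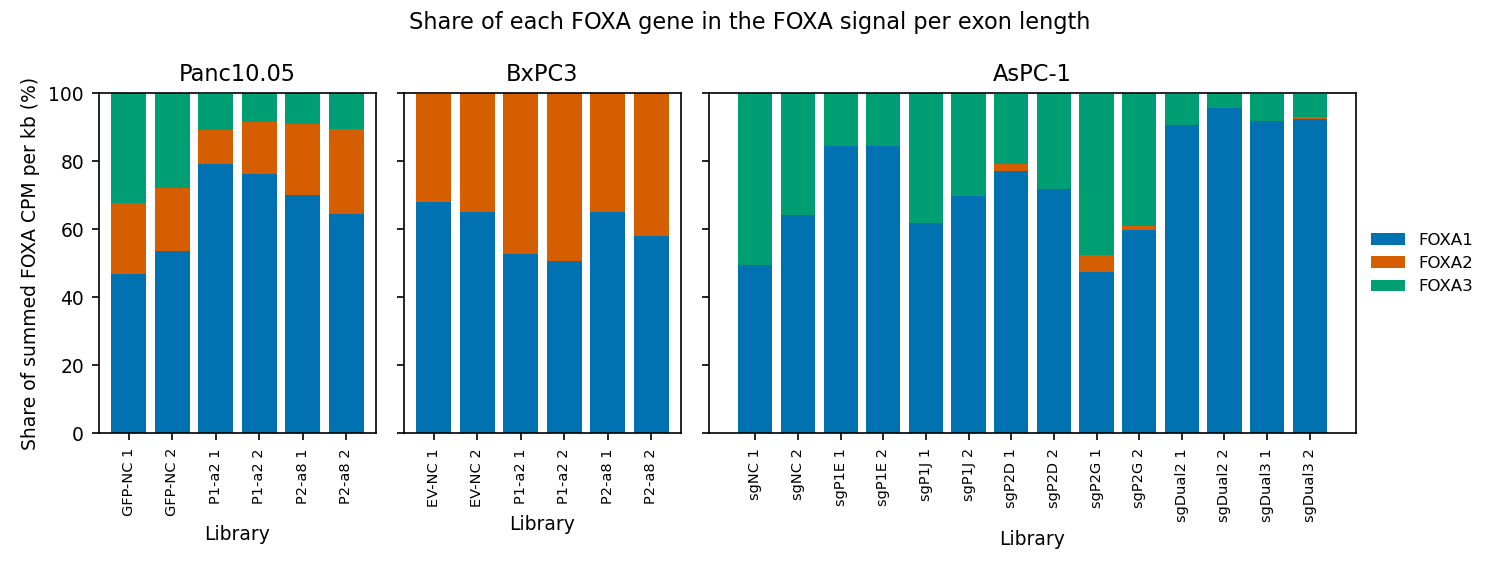
Share of FOXA1, FOXA2 and FOXA3 in the summed FOXA signal, as percent of CPM per kb of exon, with 1 bar per library in each cell line. FOXA3 makes up 27.9% to 50.4% in the Panc10.05 and AsPC-1 controls, and FOXA2 31.8% to 49.1% in BxPC3; FOXA1 exceeds 90% in the 4 dual-guide libraries.

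HNF4G was the main HNF4 gene wherever HNF4A was low. Its share of the summed HNF4 CPM per kb was 98.8 ± 0.98% (SD, n = 2) in Panc10.05 controls, 93.6 ± 2.9% in BxPC3 controls and 21.0 ± 3.7% in AsPC-1 controls. It went to 85.7 ± 7.0% (n = 4) with sgDual, where the HNF4 sum was 7.30 ± 1.43 CPM per kb against 36.9 ± 3.5 with sgNC. Under the induced isoforms it was 43.9 ± 0.7% (P1-a2) and 27.2 ± 0.6% (P2-a8) in Panc10.05, and 33.8 ± 7.7% and 36.6 ± 1.6% in BxPC3. The length of the induced transcripts is not given in the sources used here, so the HNF4A part under induction is approximate.

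FOXA1 and GATA6 rose together with sgDual in AsPC-1 and under P1-a2 in Panc10.05, and fell together under P1-a2 in BxPC3. Their promoter windows were searched for short motifs of the same factor families. The windows are the 250 bases before the start in a RefSeq promoter table (build GRCh38), which held 4 of the 8 genes, FOXA1, GATA6, CDX2 and FOXA3. Both strands were searched. The motifs were, for HNF4, CAAAGTCCA or else CAAAGGTCA, for FOXA factors TGTTTAC or else TGTTTGC, and for GATA factors AGATAA. For CDX factors they were TTTATGG or else TTTATTG, and for PDX1 the letters CTAATTA. Only stretches outside annotated exons are shown, on the strand of each gene, with a FOXA motif match in capitals. The FOXA1 stretch is chr14:37595349-37595499 on the minus strand, 250 to 100 bases before the RefSeq start and inside the longer GENCODE gene. The GATA6 stretch is chr18:22169339-22169408 on the plus strand, 250 to 181 bases before the start, and holds no match.
FOXA1: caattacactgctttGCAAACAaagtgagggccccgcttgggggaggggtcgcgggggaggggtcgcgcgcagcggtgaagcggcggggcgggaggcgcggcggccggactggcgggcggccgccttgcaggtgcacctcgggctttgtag
GATA6: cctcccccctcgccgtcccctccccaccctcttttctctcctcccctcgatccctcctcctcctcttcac

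The FOXA1 window held 1 match, TGTTTGC on the opposite strand at 235 bases before the start, which reads GCAAACA in the line above. The CDX2 window held 3 matches, 1 each for the FOXA, GATA and CDX motifs, all inside annotated exons and on the opposite strand, and those of GATA6 and FOXA3 held none. Of the 35116 windows of the table, 6.09% held a FOXA motif, 9.17% the GATA motif, 5.81% a CDX motif, 1.49% the PDX1 motif and 0.664% an HNF4 motif. A match is a run of letters and not evidence of binding, and a missing match says only that these letters are not in that window.

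Noncoding genes beside the members were read with them. GATA6-AS1, which overlaps GATA6 on the opposite strand, fell under P1-a2 in BxPC3 as GATA6 did (3.90 and 2.76 CPM in controls, 1.44 and 2.03 CPM under P1-a2, log2 fold change -0.92, SE 0.26, adjusted p 0.0184). With sgDual it was between 1.81 and 2.37 CPM against 1.04 and 1.44 CPM with sgNC and missed the threshold (adjusted p 0.104). Reads of the pair can be told apart only where counting used the strand. LINC00261, next to FOXA2, had 0 counts in all 14 AsPC-1 libraries and 17 to 26 counts in BxPC3, the line with the most FOXA2. In Panc10.05 it had 0 counts under P1-a2, 0 and 1 in the controls, and 5 and 3 under P2-a8. PLUT, next to PDX1, was detected in AsPC-1, at 6 to 27 counts, and at 0 to 2 counts elsewhere, and did not pass in AsPC-1.

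The wider set of endoderm factors was taken from a list of 58 other genes. Under P1-a2 in Panc10.05, 13 of the 27 tested rose and 8 fell, beside 31.5% and 30.5% of all genes, and the list's median log2 fold change was 0.34 against 0.02 for all genes. CREB3L3, a liver and gut factor of lipid metabolism, rose from 0.204 ± 0.084 to 2.54 ± 0.15 CPM (SD, n = 2 each). PAX6, an islet and eye factor, fell from 7.67 ± 0.66 to 2.13 ± 0.18 CPM and MNX1 from 1.73 ± 0.17 to 0.813 ± 0.012 CPM. Under P2-a8, 16 of 27 rose and 3 fell, beside 23.7% and 22.5% of all genes (median 0.56 against 0.00). ONECUT2 rose from 4.38 ± 0.09 to 31.2 ± 0.8 CPM, CREB3L3 rose again to 2.19 ± 0.11 CPM, and PAX6 (3.998 ± 0.40 CPM) and KLF4 (98.2 ± 0.6 against 147 ± 5.4 CPM) fell.

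In BxPC3, 7 of 30 rose and 9 fell under P1-a2, beside 17.1% and 14.9% of all genes (median -0.12 against -0.01). CREB3L3 rose from 0.125 ± 0.138 to 4.31 ± 0.74 CPM and the acinar factor BHLHA15 from 1.01 ± 0.58 to 2.57 ± 0.57 CPM. GATA3, a relative of GATA6, fell from 15.6 ± 1.3 to 6.72 ± 0.20 CPM, and the epithelial factor ELF3 from 93.8 ± 4.8 to 52.0 ± 7.9 CPM. Under P2-a8, 1 of 30 rose and 2 fell, beside 4.30% and 2.69% of all genes (median -0.01 against 0.01). Those that fell were the epithelial factors EHF (443 ± 6.2 to 369 ± 5.8 CPM, adjusted p 0.00854) and GRHL2 (102 ± 0.1 to 86.3 ± 0.3 CPM, adjusted p 0.0427). The GRHL2 call was lost without any 1 of the 4 libraries (adjusted p 0.108 to 0.166) and the EHF call without EV-NC replicate 2 (adjusted p 0.0809). The ELF3 and BHLHA15 calls were lost without EV-NC replicate 1 (adjusted p 0.0534 and 0.0838), and BHLHA15 also without P1-a2 replicate 2 (adjusted p 0.103).

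In AsPC-1, 7 of 28 rose and 5 fell with sgDual, beside 17.8% in each direction over all genes (median 0.04 against 0.00). SOX4, a factor of progenitors, rose from 24.9 ± 1.5 (SD, n = 2) to 89.0 ± 12.2 CPM (n = 4), and PROX1 from 1.25 ± 0.42 to 3.33 ± 0.66 CPM, the latter lost without sgNC replicate 1 (adjusted p 0.116). CEBPA, a liver and fat cell factor, fell from 34.1 ± 0.8 to 9.38 ± 1.93 CPM. With sgP1, 0 rose and 1 fell, beside 0.100% and 0.165% of all genes, and this was CREB3L3, from 290 ± 31.2 to 190 ± 18.8 CPM (adjusted p 0.0255). With sgP2, 1 rose and 0 fell, beside 1.66% and 1.76%, and this was HES1, from 37.3 ± 1.3 to 47.0 ± 2.2 CPM (adjusted p 0.0323). Both single calls were lost when either sgNC library was left out (adjusted p up to 0.419 for CREB3L3 and 0.303 for HES1), CREB3L3 also without sgP1E replicate 1 and with both groups fitted alone, and HES1 under 6 further alternatives. CREB3L3 was among the 5 genes that fell with sgDual too. It rose under P1-a2 in both induced lines. In Panc10.05 it rose under both isoforms (log2 fold change 3.59 under P1-a2 and 3.37 under P2-a8). Its fall with sgP1 rests on the call just described as lost under several alternatives.

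Gene lists of neighbouring tissues moved in the same libraries. A list of 14 gastric and foregut genes summed to 380 to 397 CPM in BxPC3 controls and 201 to 270 CPM under P1-a2, where 8 of 9 tested fell and 1, LYZ, rose, beside 14.9% and 17.1% of all genes. With sgDual in AsPC-1 it summed to 210 to 296 CPM against 59.1 to 71.3 CPM with sgNC, and 3 of 9 tested rose (AGR2, ANXA10 and TFF1, named after their calls were seen), beside 17.8% of all genes. The list of 22 intestinal genes summed to 16.7 to 18.5 CPM in BxPC3 controls and 229 to 274 CPM under P1-a2, where 9 of 11 tested rose and 1, MUC2, fell. In AsPC-1 it summed to 3449 to 3523 CPM with sgNC and 1673 to 2010 CPM with sgDual, where 7 of 15 tested fell and 2, REG4 and MUC2, rose. In Panc10.05 the intestinal list went from 1.32 to 1.77 CPM up to 62.6 to 69.2 CPM under P1-a2 and 28.1 to 30.1 CPM under P2-a8. The 22 hepatocyte genes summed to 49.6 to 52.8 CPM in Panc10.05 controls and 264 to 289 CPM under P1-a2, where 5 of 7 tested rose (APOB, HPX, APOC3, APOA1 and APOA2) and 2 fell (CPS1 and SERPINA1), beside 31.5% and 30.5% of all genes. Lists of other cell types moved as well. The 4 immune markers summed to 1.41 to 1.75 CPM in BxPC3 controls and 16.2 to 23.9 CPM under P1-a2. Of 3 tested there, 2 rose (CD68 and CD79A), beside 17.1% of all genes. The 5 fibroblast markers summed to 165 to 179 CPM with sgNC and 279 to 300 CPM with sgDual. Of 5 tested there, 1 rose (LUM), beside 17.8% of all genes. The 6 duct and epithelial markers summed to 7715 to 7970 CPM in BxPC3 controls and 10280 to 10990 CPM under P1-a2. Of 6 tested there, 4 rose and 0 fell. The gastric sum was thus lower with FOXA1 and GATA6 under P1-a2 in BxPC3 and higher with them under sgDual in AsPC-1. With sgP2 it was lower than with sgNC (27.5 to 57.0 CPM), while mean FOXA1 was 2.21 against 1.49 CPM and mean GATA6 56.4 against 56.7 CPM. With sgP1 the gastric sum was 51.6 to 158 CPM, on both sides of sgNC. In Panc10.05 it was 2.02 to 2.52 CPM in controls and 4.98 to 6.16 CPM under P1-a2. Under P2-a8 there it was 4.79 to 5.62 CPM, while mean GATA6 was 6.89 against 7.02 CPM in controls. The part of these lists in the members' changes was not tested.

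The 5 members tested in all 3 tables were also compared with all other genes by the Pearson correlation of log2(CPM + 1), centred on each line, over the 26 libraries and 11299 genes. The libraries share lines, controls and guides, and the correlations are descriptions. FOXA1 was most like HINT3 (0.93), TCP11L2 (0.93) and PARP8 (0.93), with 0.95 to 0.98 within AsPC-1 but values from -0.45 to 0.79 within the other lines, and the genes most like GATA6 included ACVR2B (0.90) and TGIF1 (0.89). GATA4 was most like PDLIM2 (0.88), LDHA (0.88) and PDRG1 (0.87), HNF4G most like ZFP64 (0.84), CTDSPL (0.83) and SEMA4G (0.82), and those most like PDX1 included CLDN7 (0.82) and MCF2L (0.78). Within BxPC3 alone PDX1 had a correlation of 0.85 with CLDN7 but only 0.10 with MCF2L. Among the members, FOXA1 and GATA6 had a correlation of 0.79, and GATA4 had negative ones with both (-0.61 with FOXA1 and -0.63 with GATA6). These values pool the lines, and 14 of the 26 libraries are AsPC-1. In Panc10.05 the 3 genes instead rose together under P1-a2 (log2 fold changes 0.52 for FOXA1, 0.54 for GATA6 and 0.30 for GATA4). Under P2-a8 in that line GATA4 (0.38) and FOXA1 (0.47) both rose.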

How the data were processed

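Counts of reads per gene in 3 tables, 1 per cell line, were used as deposited by the authors, raw and not normalized. Per the submitters' processing notes, the tools were cutadapt 1.16, STAR 2.7.9a, featureCounts 1.6.3 and DESeq2 1.36.0 with the build GRCh38; the annotation and the strand setting are not given in the sources used here. Per the labels' protocols, poly(A) RNA was made into libraries with a directional kit. The members, gene lists and tests were chosen with earlier results of these data known.

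Symbols were matched by Ensembl identifier (99.88% to 99.91% matched). Genes were kept by filterByExpr, scaled by TMM and tested with edgeR 4.0.16 (quasi-likelihood F test, robust, all groups of a table in 1 fit; R 4.3.3). P-values were adjusted by Benjamini-Hochberg over all genes tested, with a threshold of 0.05. Of the 8 members, 7 passed the filter in each table. A member was at the floor of a line where none of its libraries held more than 3 counts; CDX2 and FOXA3 were for that reason left out of the differences between lines, a choice made after their counts were seen. Guide differences came from a fit by guide, line differences from a joint fit. CPM per kb used the summed exons of GENCODE 29 on GRCh38. The fits were also run on simulated counts with 200 changed genes and equal means for all others. Far more genes were called in several comparisons here, so that run does not cover such a setting. Fold changes are printed for members with an unadjusted p under 0.05, a rule chosen after the values were seen. From the list of other factors, the 2 with the largest rise and fall per comparison were named, among those past the threshold, with at least 1 CPM on average and no overlap between groups. Alternatives were total-count and RLE scaling, no filter, DESeq2 1.42.0, a replicate block, each library or guide left out, and both groups fitted alone. Some genes that the naming rules select are not reported here, so fewer may be named than the rules allow.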

Additional observations from a re-analysis of the deposited data

Results flagged for a closer look

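For the members, 18 contrasts of Panc10.05 with BxPC3 were tested and 12 passed the threshold. They are given here because an induced isoform changed a gene by different amounts, or in opposite directions, in each line. Dose and control construct differ between the lines too. As differences in log2 fold change, Panc10.05 minus BxPC3, they were, for P1-a2 against NC, FOXA1 1.28, GATA6 1.10, HNF4G 0.66, GATA4 -0.52, FOXA2 -0.82 and PDX1 -1.75. For P2-a8 against NC they were FOXA1 0.84 and HNF4G 0.74. For P1-a2 against P2-a8 they were GATA6 1.00, GATA4 -0.80, FOXA2 -1.13 and PDX1 -2.76. FOXA1 and GATA6 were called in opposite directions in the 2 lines under P1-a2. The FOXA2, GATA4, HNF4G and PDX1 differences for P1-a2 against NC were each lost without at least 1 library. So were HNF4G for P2-a8 against NC and FOXA2 for P1-a2 against P2-a8. In the 21 sets of 4 AsPC-1 libraries checked, 0 libraries stood apart from the rest of their group for a member.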

How the results depend on the processing

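Of the 48 member fold changes past the threshold, 20 lost their call under at least 1 alternative. Over 611 alternative values, 550 kept direction and call, 61 kept direction only and 0 changed sign. The 60 fold changes with an unadjusted p of 0.05 or more, changed sign in 59 of 712 alternative values and passed the threshold in 9. They are not printed, a restriction chosen after these sign changes were seen. The 15 uncalled fold changes that are printed passed in 18 of 192 alternative values. Total counts in place of scaled ones moved 68 of 70 mean levels by less than 1 SD, and 2 by more, GATA4 under P2-a8 in Panc10.05 (26.96 CPM) and CDX2 under P2-a8 in BxPC3 (1.83 CPM).

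The number of members called moved as follows with the replicate block and with DESeq2. With the replicate number as a block it was 2 for P2-a8 against NC in BxPC3 (1 without the block), 1 for sgP2 against sgNC (0), 2 for sgP2 against sgP1 (0), 2 for sgP1E against sgP1J (1) and 1 for sgDual2 against sgDual3 (0). It was also 4 for P1-a2 against P2-a8 in BxPC3 (3, with HNF4G added), 6 for sgDual against sgNC (4, with CDX2 and HNF4G added), 6 for sgDual against sgP1 (5) and 5 for the line difference in P1-a2 against P2-a8 (4). DESeq2 called 4 in place of 6 for P1-a2 against NC in Panc10.05, 2 in place of 3 for P2-a8 against NC and 3 in place of 4 for P1-a2 against P2-a8 there, and for the lines 5 in place of 6 for P1-a2 against NC and 5 in place of 4 for P1-a2 against P2-a8. All other fits left the replicate number out. To see whether same-numbered libraries deviate together, each gene's log2 CPM difference between replicates 1 and 2 of a construct or guide was taken. These differences were correlated between constructs over the genes kept. The correlations were -0.0119 to 0.0073 in Panc10.05, 0.0727 to 0.1312 in BxPC3 and 0.0772 to 0.3391 in AsPC-1. Every pair of constructs was above 0 in BxPC3 and AsPC-1, so these values do not settle whether the number marks a pairing there. Members called only with the block are therefore uncertain. Without guide sgP1E, sgP2 against sgP1 gave 1 call, and without guide sgDual3, sgDual against sgP1 gave 3; other guides left out, the filter, the scaling and the fit of both groups alone moved a count by at most 1.

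Leaving out 1 library at a time, the count ranged in Panc10.05 from 4 to 6 for P1-a2 against NC (4 without P1-a2 replicate 1 or GFP-NC replicate 1), 2 to 4 for P2-a8 against NC (2 without GFP-NC replicate 1) and 3 to 4 for P1-a2 against P2-a8. It ranged from 0 to 1 for P2-a8 against NC in BxPC3, 1 to 4 for P1-a2 against P2-a8 in BxPC3 (1 without P1-a2 replicate 2 or P2-a8 replicate 1), 2 to 4 for sgDual against sgNC (2 without sgNC replicate 2), 0 to 1 for sgP2 against sgP1, 4 to 5 for sgDual against sgP2 and 0 to 1 for sgP1E against sgP1J. For differences between the lines it ranged from 3 to 6 for P1-a2 against NC (3 without BxPC3 EV-NC replicate 1 or Panc10.05 P1-a2 replicate 1), 1 to 3 for P2-a8 against NC (1 without BxPC3 EV-NC replicate 1 or Panc10.05 GFP-NC replicate 2) and 4 to 5 for P1-a2 against P2-a8. A lone library left in a group was assumed to vary like the other groups. Depth limits PDX1, FOXA2 and FOXA3 in Panc10.05 and FOXA3 in AsPC-1, at 7 to 52 counts per library.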
